A study of Mus musculus with 18 samples.

Results

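The 10 genes described here, *Gfap*, *Vim*, *S100b*, *Serpina3n*, *Lcn2*, *Cd44*, *Osmr*, *Stat3*, *Cd9* and *S100a6*, are widely used to describe reactive astrocytes. They were taken by name from a table of 35823 gene symbols, and the UMI counts (unique molecular identifiers, which mark single RNA molecules) of their 53 listed transcripts were summed by gene. RNA came from whole brains of homozygous *Atxn2*-CAG100-KIN mice, in which a CAG repeat expansion was knocked into the mouse gene for ataxin-2 in place of its single glutamine codon, and of wild-type (WT) littermates, each matched to a mutant by sex, all aged 10 months and on the C57BL/6 background. Per the study's methods 2 of the pairs were male and 1 was female, and which replicate numbers these are is not given in the sources used here. From each dissociated brain, microglia were pulled out with CD11b beads and astrocytes with ACSA-2 beads, and the unlabelled cells left after depletion of non-neuronal and CD31-positive cells formed the neuronal fraction. There were 18 libraries, 3 for each fraction and genotype. The fractions are enrichments and not pure cell types, and the knock-in acts in every cell of the body from development on.

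Astrocytes respond to injury, inflammation and neurodegeneration with a graded programme called reactive astrogliosis. Cytokines of the interleukin-6 family, among them oncostatin M with its receptor OSMR, signal through gp130 and JAK kinases to the transcription factor STAT3, which drives the intermediate filament proteins GFAP and vimentin and secreted proteins such as the protease inhibitor SERPINA3N and the iron-siderophore carrier lipocalin-2 (LCN2). None of the members belongs to astrocytes alone: S100B and CD9 are also made by oligodendrocytes, CD9 and STAT3 by microglia, vimentin by ependymal, vascular and immune cells, S100A6 by ependymal and many other cells, and LCN2 and CD44 by neutrophils and other leukocytes.

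Reads were taken near RNA 3′ ends, so transcripts of a gene with different last exons have different reads. This matters for *Gfap*, whose 2 coding transcripts end in different last exons on chromosome 11 (GRCm39, minus strand, gene span chr11:102778159-102791738). ENSMUST00000067444 has its last exon at chr11:102778162-102779547 and ENSMUST00000077902 at chr11:102780992-102782346. The last 30 coding bases of each, from the GENCODE transcript sequences with the stop codon in capitals, are shown because they differ from each other and so set the 2 protein ends apart.
ENSMUST00000067444: aagcaggagcacaaggacgtggtgatgTGA
ENSMUST00000077902: gaaaatggagccctgccagctctccctTAG

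Promoters of the members were searched on both strands for the STAT motif TTCNNNGAA and the AP-1 motif TGANTCA, since STAT3 is itself a member. All 10 members have a promoter, from 250 bases before to 50 after the start site, in the RefSeq table for GRCm38.p6. The STAT motif was in 1 of the 10, that of *Gfap*, against 9.55% of all symbols in the table, and the AP-1 motif in 1 of the 10, that of *Osmr*, against 8.97%. The windows below show the motif in capitals with 10 bases on either side, at chr11:102897184-102897212 (minus strand) for *Gfap* and at chr15:6874294-6874320 (minus strand) for *Osmr*. These are matches of letters and not measured binding sites.
Gfap: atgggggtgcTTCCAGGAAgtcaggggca
Osmr: gccccgtagtTGATTCAtagctggggc

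Astrocyte libraries held 2118317 to 2829969 counts, microglial libraries 2334633 to 3296398 and neuronal libraries 761481 to 2017932, and the 10 most abundant transcripts took 75.8% to 85.4% of them. Levels are given as CPM, counts relative to library size, scaled with TMM over all 18 libraries. On this scale 3 counts stand for 0.863 to 1.53 CPM in the glial libraries and for 1.92 to 3.99 CPM in the neuronal ones. *Atxn2* itself was read at 10.9 ± 0.494 CPM in WT and 9.21 ± 1.75 CPM in KIN astrocytes (SD, n = 3 each), a log2FC of -0.25 (edgeR, adjusted p = 0.63), and was called in neither of the other fractions; a read near the 3′ end does not check the expanded codon. The glial fractions carried their own markers: 6 astrocyte markers summed to 262 to 642 CPM in astrocyte libraries and to at most 22.9 CPM elsewhere, and 8 microglial markers to 479 to 842 CPM in microglial libraries and to at most 15.4 CPM elsewhere. Astrocyte libraries also held much oligodendrocyte RNA, with 7 markers at 419 to 756 CPM. Neuronal libraries held 111 to 512 CPM of 5 erythroid markers beside 97.1 to 170 CPM of 9 neuronal markers, which reached up to 106 CPM in astrocyte libraries, so that these fractions overlapped. Of those 9, 4 were called lower in the astrocyte than in the neuronal fraction, *Gad1* (log2FC -3.16), *Tubb3* (-2.94), *Stmn2* (-2.37) and *Gad2* (-1.99), and 2 were called higher, *Syt1* (2.64) and *Snap25* (1.09). Neuronal WT replicate 2 stood apart with 272 CPM of oligodendrocyte markers against 22.6 to 42.5 CPM in the other neuronal libraries.

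Over the fractions, *Gfap*, *S100b* and *Serpina3n* were highest in the astrocyte fraction, *Cd9*, *Stat3* and *Lcn2* were highest in microglia, and *Vim*, *S100a6*, *Cd44* and *Osmr* were spread over all fractions. Fractions were compared with edgeR's quasi-likelihood test over both genotypes, and calls required both an adjusted p no higher than 0.05 and a log2FC of 1 or more in either direction. Of the 10 members, 5 were called between astrocytes and microglia, 4 between astrocytes and neurons and 5 between microglia and neurons, while 33.2%, 30.8% and 27.5% of all 13552 genes tested were called in the same comparisons. The median log2FC of all genes was 0.27 for astrocytes against neurons and 0.15 for microglia against neurons, so folds against neurons carry a shift of that size.

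**Figure D1:**
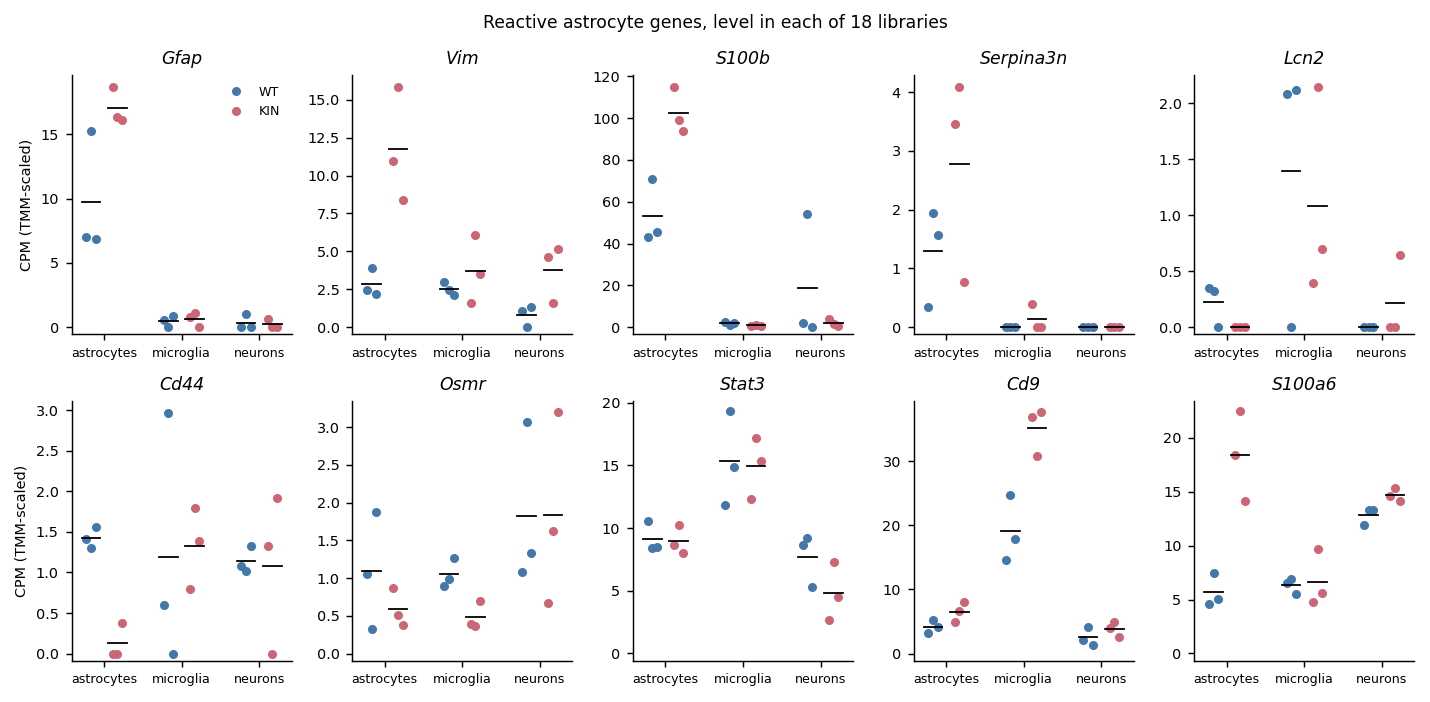
Level of each member in CPM (TMM-scaled over 18 libraries; each panel has its own axis) by fraction, with WT in blue, KIN in red, a point per library and a bar at the mean of 3. *Gfap*, *S100b* and *Serpina3n* are high in astrocytes, *Cd9* and *Stat3* in microglia, and in astrocytes all KIN libraries lie above all WT libraries for *Gfap*, *Vim*, *S100b* and *S100a6*.

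*Gfap*, the classic filament protein of astrocytes, averaged 13.4 ± 5.11 CPM in astrocytes (SD, n = 6), against 0.551 ± 0.454 CPM for microglia and 0.281 ± 0.451 CPM for neurons. It was higher in astrocytes than in microglia by a log2FC of 4.39 (SE 0.372, adjusted p = 2.06e-20). Against neurons, where only 2 counts were found in 6 libraries, the ratio of pooled levels was 46.2 (95% exact counting interval 12.7 to 384), and the groups of libraries did not overlap. Intervals of this kind cover counting error only. Microglia and neurons, at the floor of detection, were not told apart.

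*S100b*, a calcium-binding protein of astrocytes and mature oligodendrocytes, was at 78.0 ± 29.6 CPM in astrocytes (SD, n = 6) and at 1.39 ± 0.809 CPM in microglia, a log2FC of 5.74 (SE 0.327, adjusted p = 4.45e-33). Neuronal libraries read 2.16, 54.3 and 0.00 CPM in WT replicates 1 to 3 and 3.99, 1.62 and 0.641 CPM in KIN. A single library, WT replicate 2, thus held 53 of the 64 neuronal counts, and it is the library with the high oligodendrocyte markers. *S100b* was higher in astrocytes than in neurons by a log2FC of 3.50 (SE 0.305, adjusted p = 3.44e-19), which became 5.50 without that library. It was called lower in microglia than in neurons (log2FC -2.25, SE 0.548, adjusted p = 0.000491), and without that library the log2FC was -0.24 (adjusted p = 0.825).

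*Serpina3n*, a secreted serine protease inhibitor, was found almost only in astrocytes, with 34 counts there, 1 in microglia and 0 in neurons. The ratio of astrocytes to microglia was 31.6 (counting interval 5.30 to 1284). Against neurons, with a floor of 3 counts over the group, *Serpina3n* was at least 4.59-fold higher in astrocytes. Both comparisons were called, and libraries overlapped between astrocytes and microglia but not between astrocytes and neurons. The other 10 genes of the *Serpina3* cluster did not pass the low-count filter in this fit.

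*Cd9*, a tetraspanin of microglia and myelinating cells, averaged 27.1 ± 9.68 CPM in microglia, against 5.34 ± 1.76 CPM for astrocytes and 3.17 ± 1.35 CPM for neurons (SD, n = 6 each). The microglial libraries lay above every library of the other fractions. The log2FC was -2.30 for astrocytes against microglia (SE 0.215, adjusted p = 8.50e-18) and 3.01 for microglia against neurons (SE 0.295, adjusted p = 2.26e-16). Astrocytes and neurons did not differ beyond their spread (log2FC 0.71, SE 0.371, adjusted p = 0.128).

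*Stat3* followed the same order at smaller distances, with a mean of 15.1 ± 2.84 CPM for microglia, 9.06 ± 1.06 CPM for astrocytes and 6.27 ± 2.55 CPM for neurons (SD, n = 6 each). Microglia were called above neurons (log2FC 1.30, SE 0.268, adjusted p = 3.48e-05). Astrocytes against microglia passed the adjusted p but not the fold (log2FC -0.73, SE 0.206, adjusted p = 0.00195, libraries not overlapping), and astrocytes against neurons missed the p (log2FC 0.56, adjusted p = 0.115). *Stat3* lies on chromosome 11 beside *Stat5a* on the opposite strand, whose annotated span overlaps it, and reads were counted without regard to strand.

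*Lcn2* had 21 counts in microglia, 2 in astrocytes and 1 in neurons. The ratio of astrocytes to microglia was 0.0885 (counting interval 0.0101 to 0.362) and that of microglia to neurons 9.16 (1.47 to 379). Both comparisons were called, although the *Lcn2* levels of their libraries overlapped. Its microglial counts were 7, 0 and 5 in WT replicates 1 to 3 and 1, 6 and 2 in KIN. The 7 neutrophil markers summed to 62.9, 72.8 and 57.6 CPM in the same WT libraries and to 28.5, 99.2 and 24.4 CPM in KIN, against at most 0.325 CPM in astrocyte libraries and 0 in neuronal ones. WT replicate 2, with no *Lcn2* count, had the highest neutrophil sum of the WT libraries, and KIN replicate 2 was highest of KIN for both. The part of neutrophil RNA in the *Lcn2* counts was not tested.

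*Vim*, the filament protein of immature and reactive astrocytes, had a mean of 7.29 ± 5.46 CPM in the astrocyte, 3.12 ± 1.60 CPM in the microglial and 2.30 ± 2.08 CPM in the neuronal fraction (SD, n = 6 each). It was called higher in astrocytes than in neurons (log2FC 1.69, SE 0.489, adjusted p = 0.00360), a call lost when WT replicate 2 of every fraction was left out (log2FC 1.23, adjusted p = 0.0670) and when only its most abundant transcript was used (log2FC 1.01, adjusted p = 0.222). Against microglia it passed the adjusted p but not the fold (log2FC 0.87, SE 0.313, adjusted p = 0.0175). This pools both genotypes. In WT the *Vim* means were close, at 2.85 ± 0.91 CPM in astrocytes and 2.52 ± 0.426 CPM in microglia. In KIN they were 11.7 ± 3.79 and 3.72 ± 2.26 CPM. *S100a6*, a small calcium-binding protein of growing and reactive cells, was instead lowest in microglia when both genotypes were pooled. Its mean was 6.49 ± 1.74 CPM there, 12.0 ± 7.49 CPM for astrocytes and 13.8 ± 1.22 CPM for neurons. This order did not hold in WT alone, with 5.68 ± 1.56 CPM in astrocytes and 6.32 ± 0.732 CPM in microglia. In KIN the means were 18.4 ± 4.18 and 6.66 ± 2.63 CPM. *S100a6* was called lower in microglia than in neurons (log2FC -1.07, SE 0.256, adjusted p = 0.000382), with a size so near the threshold that 6 of 14 alternatives lost the call. Averaged over both genotypes, astrocytes and neurons did not differ beyond their spread (log2FC -0.43, adjusted p = 0.165). In WT, however, every astrocyte library lay below every neuronal library (means 5.68 and 12.8 CPM). In KIN the astrocyte mean was the higher (18.4 and 14.7 CPM), with libraries overlapping.

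*Cd44*, a hyaluronan receptor, and *Osmr* were near the floor in every fraction. *Cd44* had 14, 19 and 8 counts in astrocytes, microglia and neurons, and *Osmr* had 15, 12 and 13. None of their 6 comparisons between fractions was called, and the intervals at this depth were wide, as for astrocytes against microglia with a ratio of 0.684 for *Cd44* (counting interval 0.318 to 1.44) and 1.16 for *Osmr* (0.507 to 2.72). Of the 40 *Osmr* counts, 82.5% were on transcripts annotated as retained intron and only 7 on coding transcripts. Of the 24 *Lcn2* counts, 8 were on coding transcripts. The retained-intron share was 34.7% for *Stat3*, 21.4% for *Vim*, 21.5% for *Cd9*, 9.76% for *Cd44*, 0.25% for *S100a6* and 0% for *S100b*, *Serpina3n* and *Gfap*.

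In the astrocyte fraction, *Vim* and *S100a6* rose in KIN mice, *Gfap* and *S100b* passed the adjusted p with folds under the threshold, and *Serpina3n*, *Cd9* and *Stat3*, with log2FC of 1.02, 0.60 and -0.06, did not pass the test. Of the 7 members tested there, 2 were called, both higher, beside 8.85% of the 11751 genes tested (285 higher and 755 lower). KIN and WT libraries did not overlap for 4 of the 7, all higher in KIN, beside 27.9% of all genes. The median log2FC of the 7 was 0.93 and that of all genes -0.01. *Lcn2*, *Cd44* and *Osmr* had too few counts to be tested.

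*Vim* was read at 2.47, 3.89 and 2.19 CPM in WT astrocyte replicates 1 to 3 and at 10.9, 15.9 and 8.42 CPM in KIN. Every KIN library was above every WT library. The log2FC was 1.97 (SE 0.336, adjusted p = 4.44e-05, n = 3 against 3). On chromosome 2 (gene span chr2:13578738-13587639, plus strand), the main coding transcript ENSMUST00000028062 had 2, 3 and 3 counts in WT and 17, 14 and 15 in KIN. The second coding transcript, ENSMUST00000193675, which ends in the same last exon, had 4, 9 and 2 counts in WT and 13, 7 and 3 in KIN, so that its groups overlapped. How reads were shared out among transcripts with a common last exon is not given in the sources used here.

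*S100a6* was read at 4.58, 7.46 and 5.01 CPM in WT astrocytes and at 18.4, 22.5 and 14.2 CPM in KIN. The groups were well apart, and the log2FC was 1.65 (SE 0.274, adjusted p = 2.85e-05). Both coding transcripts moved alike: ENSMUST00000001051 had 7, 9 and 6 counts in WT and 24, 17 and 13 in KIN, and ENSMUST00000198128 gave 6, 11 and 8 for WT and 27, 23 and 17 for KIN. The calls of *Vim* and *S100a6* held under each of 15 other settings (other software, scaling, filters and libraries left out; marker scalings apart), with adjusted p between 2.18e-07 and 0.00273 for *Vim* and between 5.96e-08 and 0.00174 for *S100a6*.

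*S100b* was read at 43.0, 71.1 and 45.7 CPM in WT astrocytes and at 115, 99.3 and 93.7 CPM in KIN. The lowest KIN library stood above the highest WT library, and the log2FC was 0.93 (SE 0.217, adjusted p = 0.00226), just under the fold threshold. *Gfap* was read at 7.05, 15.3 and 6.89 CPM in WT and at 18.7, 16.4 and 16.1 CPM in KIN. Its groups were separated by a narrow margin, since WT replicate 2 was close to the KIN libraries, and the log2FC was 0.80 (SE 0.263, adjusted p = 0.0370). WT replicate 2 was the highest WT library for both genes, and without it both were called, beside 13.4% of all genes in that fit, with log2FC of 1.19 for *S100b* (adjusted p = 2.26e-06) and 1.28 for *Gfap* (adjusted p = 7.90e-05). With DESeq2 the adjusted p of *Gfap* was 0.2004, and over the same 15 settings it lay between 7.90e-05 and 0.256.

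Both coding transcripts of *Gfap* contributed to its counts in astrocytes. The transcript ending nearer the chromosome start, ENSMUST00000067444, gave 14, 34 and 16 counts in WT and 37, 19 and 29 counts in KIN, and ENSMUST00000077902 gave 6, 13 and 6 counts for WT and 27, 13 and 12 for KIN. The second transcript made up 30.0%, 27.7% and 27.3% of both in WT and 42.2%, 40.6% and 29.3% in KIN. These shares overlapped between genotypes.

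**Figure D2:**
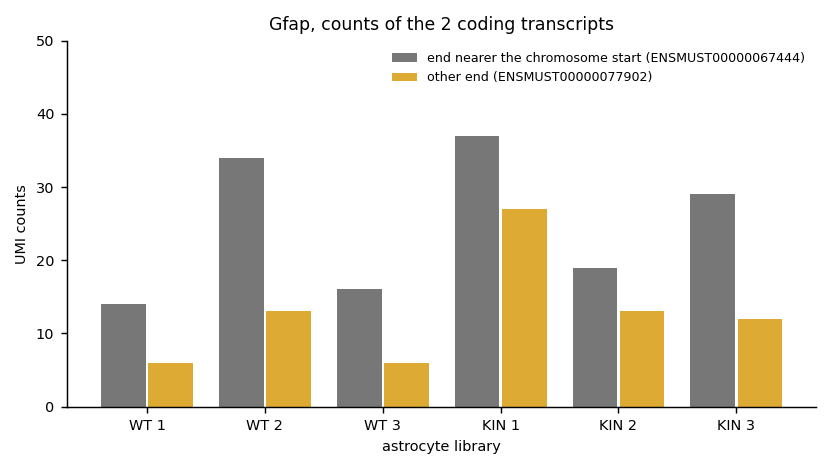
UMI counts of the 2 coding transcripts of *Gfap* in each of the 6 astrocyte libraries, grey for ENSMUST00000067444 and yellow for ENSMUST00000077902. The first is the more abundant in every library, and the second reaches 27 counts in KIN replicate 1.

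*Serpina3n* had 1, 6 and 5 counts in WT astrocytes and 12, 8 and 2 in KIN. The libraries overlapped, and the log2FC of 1.02 had an SE of 0.579 (adjusted p = 0.277). *Cd9* averaged 4.14 ± 1.01 CPM in WT against 6.53 ± 1.58 CPM for KIN (SD, n = 3 each), and the log2FC was 0.60 (SE 0.337, adjusted p = 0.270). *Stat3* averaged 9.15 ± 1.23 CPM in WT against 8.97 ± 1.14 CPM for KIN, and the log2FC was -0.06 (SE 0.275, adjusted p = 0.930). For the RNA of *Stat3*, which encodes the transcription factor of the programme, the data thus held no difference beyond the spread. The activity of the protein was not measured.

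*Cd44* had the opposite sign in astrocytes, with 4, 4 and 5 counts for WT replicates 1 to 3 and 0, 0 and 1 for KIN. All WT libraries were above all KIN libraries, and the ratio of KIN to WT was 0.0872 (counting interval 0.00205 to 0.580). It did not pass the low-count filter, and without a filter its adjusted p was 0.0597. *Osmr* had 3, 1 and 6 counts in WT and 3, 1 and 1 in KIN, and *Lcn2* had 1, 1 and 0 counts for WT and 0 in every KIN library. At these depths no difference was detectable for *Osmr* or *Lcn2*.

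**Figure D3:**
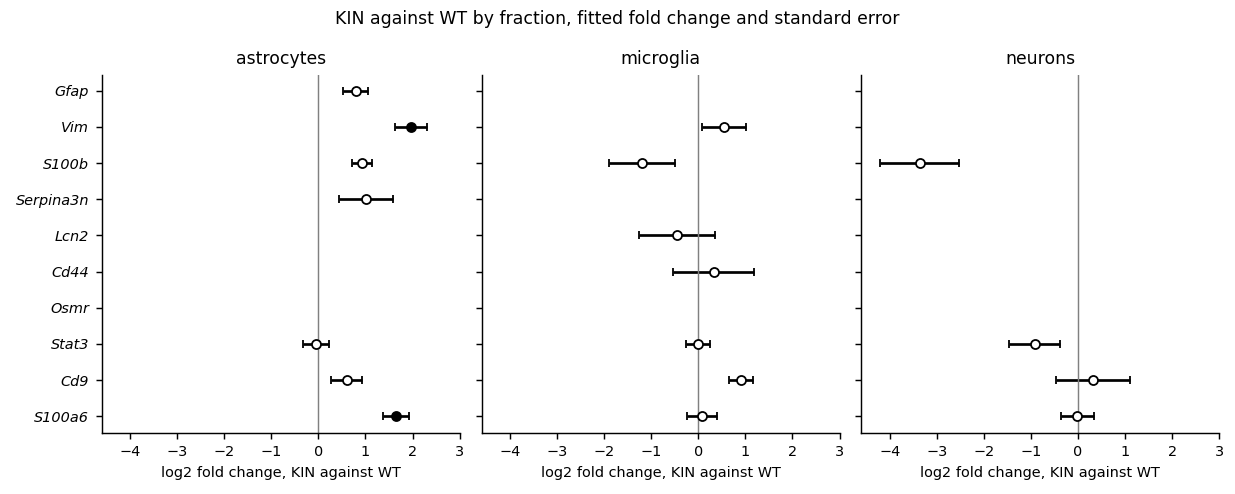
log2 fold change of KIN against WT (edgeR, with its standard error) by fraction for the members with enough counts, those called being filled. *Vim* (1.97) and *S100a6* (1.65) in astrocytes are the only filled points; *S100b* in neurons (-3.36) rests on WT replicate 2.

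Sums of astrocyte, oligodendrocyte and ependymal markers in the astrocyte fraction differed with genotype in the same libraries. The 6 astrocyte markers summed to between 437 and 642 CPM in WT libraries and between 262 and 274 CPM in KIN libraries. The 7 oligodendrocyte markers summed to between 419 and 652 CPM in WT and between 754 and 756 CPM in KIN, and the 5 ependymal markers to between 31.0 and 36.0 CPM and between 54.7 and 60.4 CPM. Neuronal markers summed to 28.6 to 106 CPM in WT and 23.3 to 37.5 CPM in KIN. Of the single markers of these lists, 4 of 6 astrocyte and 5 of 9 neuronal markers lay lower in all KIN libraries. Markers higher in all KIN libraries were 3 of 7 oligodendrocyte, 5 of 5 ependymal and 1 of 9 neuronal ones. Of all genes, 27.9% were without overlap in either direction. In bulk fractions, fewer cells of a type and less RNA per cell cannot be told apart. WT replicate 2, the WT library with most *Gfap* and *S100b*, had the highest sum of both oligodendrocyte markers (652 CPM) and astrocyte markers (642 CPM) among the WT libraries.

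Set against oligodendrocyte markers, *S100b* stood at 10.3, 10.9 and 10.5 counts per 100 marker counts in WT astrocytes and at 15.3, 13.2 and 12.4 in KIN. *Gfap* stood at 1.68, 2.34 and 1.59 in WT and at 2.48, 2.17 and 2.13 in KIN, which overlap. *Vim* stood at 0.589, 0.598 and 0.506 in WT and at 1.45, 2.10 and 1.11 in KIN, and *S100a6* at 1.09, 1.15 and 1.16 in WT and at 2.44, 2.99 and 1.87 in KIN. For *Vim*, *S100a6* and *S100b* every KIN ratio was above every WT ratio. Against 100 counts of ependymal markers the margins were narrower: *S100a6* stood at 14.8, 23.2 and 13.9 in WT and at 33.7, 37.3 and 24.3 in KIN, *Vim* at 6.09 to 12.1 in WT and 14.5 to 26.3 in KIN, and *S100b* and *Gfap* overlapped.

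The fits were therefore repeated, as an alternative chosen after seeing the data, with libraries scaled to the summed counts of each marker list. Scaling to astrocyte markers shifted the median log2FC of all genes to 0.90, and 6 of the 7 members were called, all except *Stat3*, beside 34.7% of all genes. Scaling to oligodendrocyte markers shifted it to -0.60, with *Vim* (log2FC 1.43, adjusted p = 0.00948) and *S100a6* (1.09, adjusted p = 0.0148) called beside 17.3% of all genes, and *S100b* at 0.36 (adjusted p = 0.213) and *Gfap* at 0.26 (adjusted p = 0.556). Scaling to ependymal markers shifted it to -0.77, with *Vim* alone of the members called (log2FC 1.20, adjusted p = 0.00496) beside 30.8% of all genes, *S100a6* at 0.87 (adjusted p = 0.0151), *S100b* at 0.14 and *Gfap* at 0.01. These scalings move all genes together and leave the order of the members as it was: *Vim* was first and *S100a6* the next under each. The part of oligodendrocyte or ependymal RNA in the rise of *Vim*, *S100a6*, *S100b* and *Gfap* was not tested beyond this.

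**Figure D4:**
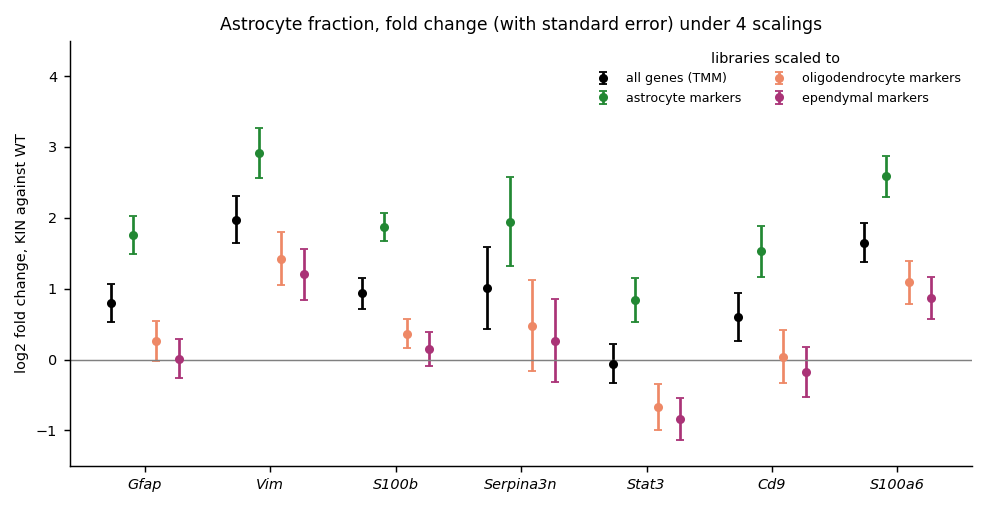
log2 fold change of KIN against WT with its standard error for 7 members in the astrocyte fraction, with libraries scaled to all genes (black), astrocyte markers (green), oligodendrocyte markers (orange) or ependymal markers (purple). *Vim* stays above 1 under each scaling (2.91 with astrocyte and 1.20 with ependymal markers), while *Gfap* falls from 1.75 to 0.01.

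The genes whose levels ran most like a member's over the 18 libraries (Pearson r of log2 CPM among 4291 genes with a mean of at least 5 CPM, as a description) included myelin genes for the astrocyte members. For *Gfap* they were *Mog* (r = 0.973), *Mag* (0.970) and *Sox10* (0.970), for *S100b* *Mobp* (0.969), *Tppp3* (0.957) and *Mbp* (0.957), and for *Serpina3n* *Mog* (0.889), *Cmtm5* (0.879) and *Syt11* (0.878). *Mog*, *Mag*, *Mobp* and *Mbp* encode myelin proteins and *Sox10* a transcription factor of oligodendrocytes. The 6 astrocyte libraries were high in both kinds of gene, so these values include the step between fractions. The share of that step in them was not tested. *Cd9* ran with *Ctsd* (0.963), which encodes a lysosomal protease, and *Bst2* (0.957), and *Stat3* with *Ttc7* (0.914), *Pxn* (0.897) and *Rasa4* (0.895). *Vim* ran with *Ccdc107* (0.832), *Eif4a1* (0.802) and *Ash2l* (0.799), and *S100a6* with *Anapc5* (0.889), *Psmb2* (0.863) and *Pnma8c* (0.825). *Lcn2* (*Vkorc1l1*, 0.767), *Cd44* (*Bltp1*, 0.664) and *Osmr* (*Add2*, 0.757) had looser neighbours, at counts near the floor.

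**Figure D5:**
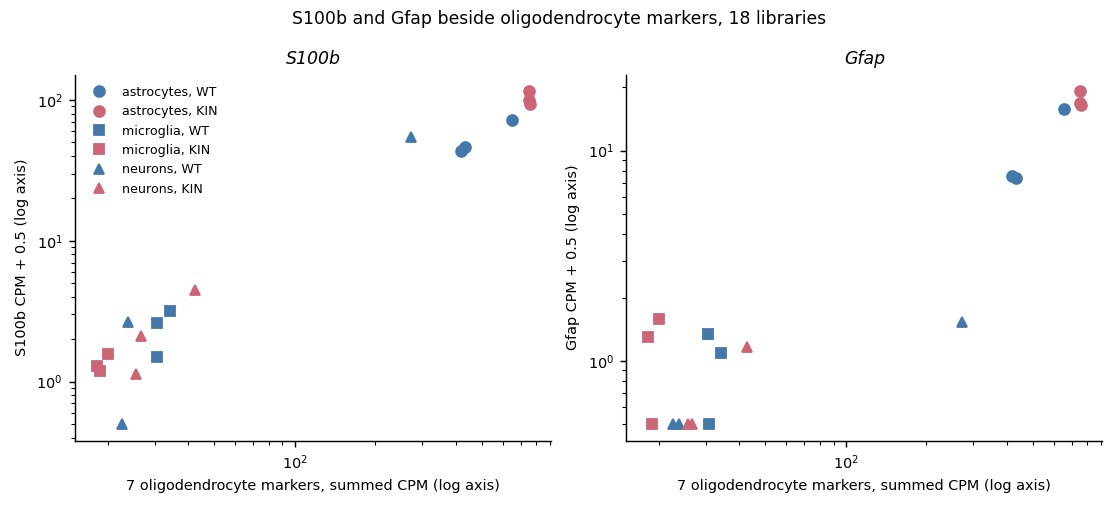
CPM of *S100b* and *Gfap*, with 0.5 added, against the summed CPM of 7 oligodendrocyte markers in 18 libraries on log axes, circles for astrocytes, squares for microglia and triangles for neurons, WT in blue and KIN in red. Neuronal WT replicate 2 (272 CPM of markers) has high *S100b*, 54.3 CPM, but *Gfap* near the other neuronal libraries, at 1.02 CPM.

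In microglia no member was called, beside 1.52% of the 10831 genes tested (80 higher and 85 lower). Of the 7 members tested, 1 had an unadjusted p under 0.05, *Cd9*, as did 12.0% of all genes, and DESeq2 also called none. *Cd9* was read at 14.5, 24.7 and 17.8 CPM in WT microglia and at 36.9, 30.8 and 37.6 CPM in KIN. The groups did not overlap, as for 16% of all genes tested, and the log2FC was 0.90 (SE 0.248, adjusted p = 0.0593). Without WT replicate 2 *Cd9* was called (log2FC 1.12, adjusted p = 0.00225), beside 4.23% of all genes in that fit, and its adjusted p over 15 such settings lay between 0.00225 and 0.391. Against 100 counts of microglial markers, *Cd9* stood at 2.89, 2.94 and 3.72 in WT and at 5.53, 5.36 and 6.35 in KIN, and with libraries scaled to those markers the log2FC was 0.86 (adjusted p = 0.217). Border macrophage markers, 4 genes, summed to 4.45 to 5.93 CPM in WT and 9.51 to 12.5 CPM in KIN, and their part in the *Cd9* difference was not tested.

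The other microglial members tested did not pass the test. *Stat3* was at 15.3 ± 3.74 CPM in WT and 14.9 ± 2.47 CPM in KIN (log2FC -0.01, SE 0.260, adjusted p = 0.998), and *S100a6* at 6.32 ± 0.732 CPM and 6.66 ± 2.63 CPM (log2FC 0.09, SE 0.321, adjusted p = 0.968). *Vim* was at 2.97, 2.47 and 2.12 CPM in WT and 1.59, 6.09 and 3.48 CPM in KIN, where the KIN libraries spread on both sides of WT (log2FC 0.55, adjusted p = 0.757). *S100b* had 16 counts in WT and 7 in KIN (log2FC -1.20, SE 0.699, adjusted p = 0.548), and oligodendrocyte markers summed to 30.5 to 34.1 CPM in WT and 18.2 to 20.1 CPM in KIN in those libraries. *Lcn2* (12 and 9 counts) and *Cd44* (8 and 11 counts) had adjusted p of 0.930 and 0.953. *Gfap* with 4 and 5 counts, *Osmr* with 8 and 4 and *Serpina3n* with 0 and 1 were not tested. All WT libraries lay above all KIN libraries for *Osmr* (1.05 ± 0.198 and 0.483 ± 0.185 CPM), but each held 1 to 3 counts, and the ratio of 0.473 had a counting interval of 0.104 to 1.77, so that a difference was not detectable at this depth.

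In neurons no member was called either, beside 0.0148% of the 6765 genes tested, which is 1 gene; 341 genes (5.04%) had an unadjusted p under 0.05, *S100b* being the only member among them. *S100b* had a log2FC of -3.36 (SE 0.840, adjusted p = 0.169) that came from WT replicate 2 with 54.3 CPM. Without that library *S100b* did not pass the low-count filter, and it was called under 4 settings that kept it. *Vim* had 1, 0 and 1 counts in WT and 7, 2 and 8 in KIN, a ratio of 5.25 (counting interval 1.25 to 46.8), without overlap in CPM, as for 13.9% of all genes tested, but with an adjusted p of 0.970 in edgeR. *S100a6* was read at 11.9, 13.3 and 13.3 CPM in WT and at 14.6, 15.4 and 14.1 CPM in KIN, all KIN libraries lying slightly above all WT libraries on this scale, while the fitted change was near 0 (log2FC -0.01, SE 0.354, adjusted p = 0.997 in the fit of the 6 neuronal libraries, which scales them apart from the others). *Stat3* (log2FC -0.92, SE 0.536) and *Cd9* (log2FC 0.31, SE 0.791) had adjusted p of 0.970 and 0.984. The remaining 5 members had too few counts, *Serpina3n* with 0 in all 6 libraries.

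Whether the effect of the knock-in differed between glial fractions was tested as an interaction in the 12 glial libraries, and none of the 9 members tested was called, beside 1.17% of 13277 genes. The largest evidence was for *S100a6*, whose effect was lower in microglia than in astrocytes by 1.57 on the log2 scale (log2FC difference -1.57, SE 0.443, unadjusted p = 0.000729, adjusted p = 0.0546), and for *S100b* (-2.15, SE 0.669, adjusted p = 0.0928). *Vim* had a difference of -1.43 (SE 0.596, adjusted p = 0.255) and *Cd9* of 0.30 (SE 0.438, adjusted p = 0.826). With DESeq2 none was called either, and 4 members had an unadjusted p under 0.05 in edgeR, *S100a6*, *S100b*, *Cd44* and *Vim*, as did 13.2% of all genes. With the replicate number as a block *S100a6* and *S100b* were called, beside 2.59% of all genes.

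Other genes around the members were followed in lists that overlap with them. The counts of called genes in these lists stand beside 8.85% of all genes called in astrocytes and 1.52% in microglia, so that a single call in a list of 6 to 13 tested genes in astrocytes does not set the list apart. For the gp130 and STAT3 pathway, 24 genes were listed, from ligands and receptors to JAK kinases and SOCS inhibitors. Of these, 17 were tested in astrocytes and 19 in microglia, and none was called in either fraction. Their median log2FC was -0.17 in astrocytes and 0.12 in microglia. These are RNA levels, and signalling was not measured. The pan-reactive panel had 1 of 6 tested genes called in astrocytes (*Vim* itself) and 1 of 6 in microglia, the chemokine *Cxcl10*, which rose from 1.44 ± 0.568 to 5.79 ± 1.19 CPM (log2FC 1.99, SE 0.443, adjusted p = 0.0172).

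The panel named A1 had 1 of 6 genes called in astrocytes and 1 of 7 in microglia, in both *H2-D1*, a classical MHC class I gene whose reads could be shared with its close relatives. *H2-D1* went from 5.19 ± 0.999 to 12.0 ± 1.72 CPM in astrocytes (log2FC 1.18, SE 0.290, adjusted p = 0.00404). In microglia it went from 28.3 ± 8.89 to 69.7 ± 7.72 CPM (log2FC 1.31, SE 0.248, adjusted p = 0.00591). The panel named A2 had none of 2 tested in astrocytes and 1 of 4 in microglia, the lipopolysaccharide co-receptor *Cd14* (18.4 ± 9.38 to 42.9 ± 10.2 CPM, log2FC 1.26, adjusted p = 0.0217). Most genes of these panels had too few counts in astrocytes to be tested.

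Among filament genes, *Vim* alone of 8 was called in astrocytes, and in microglia 1 of 6, the cytolinker *Plec*, fell from 15.2 ± 3.81 to 3.97 ± 1.40 CPM (log2FC -1.94, SE 0.311, adjusted p = 0.000925), in libraries where 9 neuronal markers summed to 16.3 to 54.3 CPM in WT and 8.32 to 11.8 CPM in KIN. Of the S100 family, 7 were tested in each fraction and *S100a6* in astrocytes was the only call; the family's median log2FC was 0.64 in astrocytes and -0.16 in microglia. Among partners of CD44 and CD9, the tetraspanin *Cd82* rose in astrocytes from 6.97 ± 1.46 to 18.2 ± 0.705 CPM (log2FC 1.36, SE 0.257, adjusted p = 0.000208), 1 of 13 tested. In microglia 2 of 15 rose, the CD44 ligand *Spp1* from 0.664 ± 0.905 to 10.6 ± 0.909 CPM (log2FC 3.95, SE 0.494, adjusted p = 3.58e-05) and the tetraspanin *Cd63* from 23.3 ± 5.65 to 62.0 ± 4.97 CPM (log2FC 1.42, SE 0.240, adjusted p = 0.00178). None of the LCN2 receptor list was called.

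Of the homeostatic astrocyte list, 7 of 14 fell in the astrocyte fraction and none rose, with a median log2FC of -1.05 beside -0.01 for all genes. The list includes all astrocyte markers summed above (*Aqp4*, *Aldh1l1*, *Fgfr3*, *Slc1a3*, *Gja1* and *Aldoc*), so its fall and theirs are not separate results. The largest falls were in *Gjb6* (17.3 ± 3.86 to 6.51 ± 2.38 CPM, log2FC -1.41, adjusted p = 0.000275) and *Gja1* (102 ± 21.8 to 39.3 ± 4.06 CPM, log2FC -1.39, adjusted p = 1.25e-05), which encode astrocytic gap junction proteins, and in the glutamate transporter *Slc1a2* (238 ± 57.5 to 94.6 ± 8.93 CPM, log2FC -1.34, adjusted p = 2.85e-05). In microglia 2 of the 8 tested fell, *Aldoc* from 4.71 ± 3.28 to 0.483 ± 0.185 CPM and *Slc1a2* from 9.38 ± 2.56 to 1.49 ± 0.471 CPM. In neurons no gene of any of these lists was called.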

How the data were processed

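Libraries were made by panRNA 3′-end sequencing (MACE-seq) with rRNA depletion, added poly(A) tails and molecular identifiers. Per the submitters' processing notes, the tools included cutadapt 4.6, Bowtie2 2.4.4 and HTSeq 2.0.2; reads were mapped to small RNAs and then mm39 (the same assembly as GRCm39) and counted without strand. The deposited counts are whole numbers per transcript, not normalized. The authors' own fold changes and p-values in the same table, and 36 further columns with values per sample (TPM and another normalized form), were left aside. Because strand was not used, reads of antisense partners cannot be told apart for the 6 members that overlap another annotated gene (*S100b* with *Dip2a* and *Stat3* with *Stat5a* among them). Entries without a name held at most 0.0305% of counts and were left out.

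Groups came from the sample labels. Counts were summed by name; genes with at least 5 counts in at least 2 libraries were tested with edgeR 4.0.16 (R 4.3.3; TMM, quasi-likelihood test, Benjamini-Hochberg over all genes, prior count 0.125). A call needed an adjusted p no higher than 0.05 and a log2FC of 1 or more in either direction. Standard errors were the log2FC over the root of F. Where a group held 3 counts or fewer, a ratio of pooled counts with an exact 95% interval, or a bound at 3 counts over the group, replaced the fitted fold. The fits were tested on simulated data. The alternatives included DESeq2 1.42.0. The members, lists and motifs were chosen with earlier results of these data known; genes outside the members are those called in a list, up to 3 per list and direction, markers used beside a result, and the 3 genes most like each member, not all of which are reported here.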

Additional observations from a re-analysis of the deposited data

Results flagged for a closer look

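Among the 6 libraries of a fraction, a member's level was checked for a library far from the others wherever a library held at least 5 counts. *S100b* in neurons stood out: the gap between WT replicate 2 (54.3 CPM) and the next library was 0.927 of the whole range, above Dixon's 95% critical value for 6 samples. Oligodendrocyte markers were at 272 CPM in the same library. Chance alone marks about 1 in 20 such groups, and 22 were checked, so that about 1 mark would be found without any cause.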

How the results depend on the processing

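Of the 46 folds of members, 709 values under alternatives were computed: 641 kept direction and call, 27 gained and 12 lost the call, and 29 changed sign. In astrocytes 4 members were called on the adjusted p alone, beside 11.9% of all genes (2 to 4 with a library left out, beside 5.14% to 13.4%), 6 after scaling to astrocyte markers (34.7%) and 1 after scaling to ependymal markers (30.8%). With a library left out, 0 to 1 were called in microglia (0.335% to 4.23% of all genes) and in neurons (0% to 0.337%); in neurons 1 was called without a filter (0.134% of all genes) or with all 18 libraries in 1 fit (0.199%). For astrocytes against microglia 8 were called on the adjusted p alone (42.7% of all genes) and 3 with the filter at a mean of 10 counts (35.7%). For microglia against neurons 3 were called by the transcript of highest mean count, where genes other than members kept their sums (27.5% of all genes), and 2 to 4 with libraries left out (24.9% to 27.0%). In the interaction 1 was called with the filter at a mean of 10 counts (2.73% of all genes), 2 with the replicate block (2.59%) and 0 to 2 with a library left out (0.553% to 2.30%).

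Signs changed mostly near 0, and the cause was not tested. By the transcript of highest mean count alone, the log2FC was 0.70 for *Stat3* in astrocytes, -0.35 for *Vim* in microglia, 0.74 for *S100a6* in neurons, 0.042 for *S100a6* between astrocytes and neurons, and in the interaction 0.037 for *Gfap* and -1.01 for *Stat3*. Scaling gave *Stat3* 0.84 (astrocyte markers) and *Cd9* -0.17 (ependymal markers) in astrocytes. *S100a6* in neurons was at 0.0057 without the 10 most abundant transcripts, 0.18 without a filter and 0.19 with all 18 libraries. With a library left out, the range was -0.15 to 0.045 for *Stat3* in astrocytes and, in microglia, -0.20 to 0.17 for *Stat3*, -0.21 to 0.57 for *Cd44* and -0.27 to 0.26 for *S100a6*; it was -0.10 to 0.068 for *S100a6* in neurons, -0.08 to 0.40 for *Osmr* between astrocytes and microglia, -0.72 to 0.46 for *Cd44* between microglia and neurons, and in the interaction -1.22 to 0.0025 for *Gfap* and -0.15 to 0.22 for *Stat3*.

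Within a fraction, the deviations of same-numbered WT and KIN libraries correlated at -0.083 to 0.058. Which WT and KIN numbers are littermates is not given in the labels, and values from so few libraries cannot decide it. The fractions of a brain were isolated one after another, but the labels do not say whether a number is the same mouse in each; between astrocytes and microglia, same-numbered libraries correlated at 0.064 to 0.209 in WT and -0.013 to 0.027 in KIN. Tests between fractions without the block treat these libraries as independent. The replicate block changed no call of a member within a fraction. Depth limits *Lcn2*, *Cd44* and *Osmr* in every fraction and most members in neurons.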
